A study of Homo sapiens with 95 samples.

Results

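The comparison of cigarette smoke condensate (CSC) with benzo(a)pyrene (BaP) used 47 of the 95 samples of the study, the 23 samples treated with CSC and the 24 treated with BaP, chosen by the treatment in their labels. All were AALE cells, human epithelial cells of the bronchi that were immortalized for culture, profiled by sparse full length (SFL) RNA sequencing, which pools many barcoded libraries at low depth. CSC, the particulate fraction of smoke, was given at 24 μg/ml, and BaP, a single polycyclic aromatic hydrocarbon, at 173 μM, so the doses are in different units and are not matched. The exposure time was not given in the sources used here.

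Each treatment was given to 8 lines. Overexpression of NRF2 (gene NFE2L2), FGFR1, NRG1 or PIK3CA had as control a line with an empty vector carrying the reporter HcRed. CRISPR knockouts of FAT1 or CDKN2A had as control cells that received the Cas9-GFP plasmid without a guide (GFP). Each line had 3 samples per treatment, except FGFR1 with CSC, which had 2. The study's methods call them biological replicates and describe cells plated in multi-well plates, but whether the wells of a combination came from separately grown cells was not stated, so p-values measure only the spread between these samples. Samples treated with DMSO (n = 24), the solvent, entered no test, and their levels are given as background.

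CSC holds many compounds, including aromatic hydrocarbons, aldehydes, quinones and metals. Aromatic hydrocarbons bind the aryl hydrocarbon receptor (AhR), which induces cytochrome P450 enzymes such as CYP1A1, and reactive electrophiles release NRF2 from KEAP1, so that NRF2 switches on antioxidant genes such as NQO1 and HMOX1. Liver X receptors (LXR) respond to oxidized cholesterol by raising cholesterol exporters and fatty acid synthesis, SREBP2 raises sterol synthesis when cholesterol is low, and interferon-stimulated genes answer viral RNA and interferon. In each comparison, log2 fold changes are CSC minus BaP, so that a positive value is a higher level with CSC. Rose and fell mean higher or lower with CSC than with BaP, and do not compare CSC with DMSO.

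The sequences shown here are from the start regions of ABCA1, the gene with the largest rise by the naming rule, and of 4 interferon-stimulated genes that were lower with CSC. They were chosen because they hold the motif marked in them. MX1 and DDX58, which were also lower with CSC, hold no match to the interferon motif and are not shown. They are stretches just upstream of the transcription start in RefSeq's annotation of GRCh38.p14, read 5′ to 3′ on the gene's strand. Capitals mark matches, on either strand, to a loose form of the direct repeat that LXR binds (GGTNA, any 5 bases, GGTNA) in ABCA1, and to the core of the interferon response element (GAAA, any 2 bases, GAAA) in the others. The stretches lie at chr9:104928156-104928305 (minus strand) for ABCA1, chr10:89392473-89392622 (plus) for IFIT1, chr10:89327827-89327996 (plus) for IFIT3, chr1:1013347-1013496 (plus) for ISG15 and chr2:162318685-162318854 (minus) for IFIH1.
ABCA1: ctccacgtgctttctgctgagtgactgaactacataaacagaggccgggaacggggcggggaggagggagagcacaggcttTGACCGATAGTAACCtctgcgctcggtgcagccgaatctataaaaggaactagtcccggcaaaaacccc
IFIT1: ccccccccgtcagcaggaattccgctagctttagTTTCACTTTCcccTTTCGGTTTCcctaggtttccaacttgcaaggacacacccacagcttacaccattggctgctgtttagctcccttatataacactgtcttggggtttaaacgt
IFIT3: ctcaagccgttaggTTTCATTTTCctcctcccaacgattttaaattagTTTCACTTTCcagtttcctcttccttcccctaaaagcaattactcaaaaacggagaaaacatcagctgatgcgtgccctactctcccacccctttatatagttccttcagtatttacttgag
ISG15: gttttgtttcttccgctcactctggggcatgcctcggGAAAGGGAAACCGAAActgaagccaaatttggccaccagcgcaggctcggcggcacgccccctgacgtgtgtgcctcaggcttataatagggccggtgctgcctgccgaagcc
IFIH1: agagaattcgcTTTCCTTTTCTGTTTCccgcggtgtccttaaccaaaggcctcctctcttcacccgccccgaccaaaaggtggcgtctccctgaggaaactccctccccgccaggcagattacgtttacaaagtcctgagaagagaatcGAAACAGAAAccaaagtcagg

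The window searched was the 250 bases before each gene's start, on both strands, in 27305 promoters. The LXR repeat was in 0.553% of them and in 1 of the 11 promoters found for a list of LXR target genes, that of ABCA1, where its first base was at position -69 relative to the start. The interferon motif was in 3.07% of all promoters and in 10 of the 17 found for the interferon-stimulated list. Other motifs were TGACNNNGC, bound by NRF2 (11% of all promoters, 4 of 17 of its target list), GCGTG, bound by AhR (31.9% of all, 4 of 6 AhR targets), TCACNCCAC, bound by SREBP (0.875% of all, 1 of 19 of the cholesterol and fatty acid list), and TGANTCA, bound by AP-1 (6.6% of all, 1 of 13 genes of the EGF ligand and ERK feedback list). These matches describe the letters in the window only.

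Counted reads per library were between 485031 and 2116383 with CSC (median 825587) and between 287446 and 1641129 with BaP (median 836087.5). Fewer than 500000 reads were counted in 1 CSC library and 5 BaP libraries, and 3 reads, the limit that a count of 0 allows, equalled 1.42 to 10.4 CPM (reads scaled to a common library total) over the libraries, counting error only. Reads of the overexpressed genes were higher in their own line than in any other: NRG1 had 2536 to 9146 reads in the NRG1 line against 3 to 122, and NFE2L2 had 932 to 1756 in the NRF2 line against 58 to 398. FAT1 had 27 to 117 reads in the FAT1 knockout line against 124 to 1401 elsewhere, while the CDKN2A ranges overlapped (26 to 58 against 30 to 212). Basal epithelial markers summed to 3182 to 5869 CPM over the 47 libraries, and CD3E, CDH5 and SCGB3A2, markers of T cells, endothelium and club cells, had 0 reads in all 47.

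CSC and BaP differed in many genes by small amounts and in few by large ones. Of 14345 genes tested, 2165 (15.1%) passed an adjusted p of 0.05 in limma-voom with the line as a covariate and Benjamini-Hochberg adjustment, 1230 (8.57%) higher with CSC and 935 (6.52%) lower. Only 35 of the 2165 differed by at least 2-fold, 26 higher and 9 lower with CSC. In 774 of the 2165 the difference had the same sign in all 8 lines, with 498 higher and 276 lower. Over all genes tested, whether or not they passed, the mean was higher with CSC in all 8 lines in 4.11% and lower in all 8 in 2.29%. The median log2 fold change over all genes tested was -0.0065. Without the scaling between libraries (plain CPM) the split became 1071 higher and 1193 lower. With a trend on GC content and gene length removed it became 1139 and 1203, so the balance of directions depended on the scaling. The gene lists counted below were all chosen with earlier results of these data known, so their counts are descriptions.

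**Figure D1:**
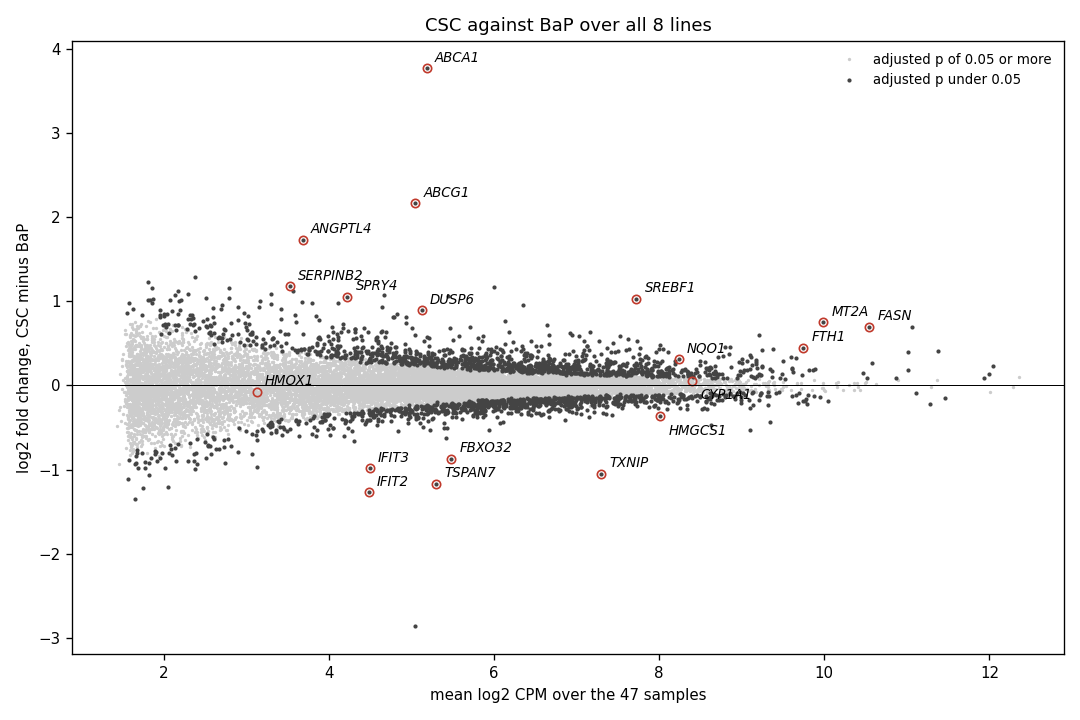
Each point is a tested gene, placed by its mean log2 CPM over the 47 samples and its log2 fold change, CSC minus BaP. Dark points have an adjusted p under 0.05 and labelled genes are circled. ABCA1 and ABCG1 stand above all other named genes, IFIT2, TSPAN7 and TXNIP lie lowest among the labelled genes, and CYP1A1 and HMOX1 lie near 0.

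The largest rises were in genes of cholesterol export. ABCA1 (gene body chr9:107543287-107690436, GRCh37), the transporter that loads cholesterol onto apolipoprotein A-I, was at 5.77 to 7.84 log2 CPM with a median of 7.04 with CSC and at 1.05 to 5.11 with a median of 3.38 with BaP. No CSC sample overlapped any BaP sample, and the DMSO samples, at 3.33 to 6.27 with a median of 4.94, had a median between those of the treated groups. The log2 fold change was 3.77 (SE 0.135, adjusted p = 1.34e-41), a 13.6-fold difference. In reads, ABCA1 had a median of 124 per library with CSC, 6 with BaP and 32 with DMSO.

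ABCG1 (chr21:43619799-43717354, GRCh37), which exports cholesterol to HDL particles, was at 5.35 to 6.77 log2 CPM with a median of 6.24 with CSC and 1.80 to 4.94 with a median of 4.04 with BaP. Here too the treated groups did not overlap, and the DMSO median of 4.48 was nearer to BaP. Its log2 fold change was 2.16 (SE 0.104, adjusted p = 4.60e-32). SREBF1, the transcription factor gene that drives fatty acid synthesis and is itself induced by LXR, was at 7.83 to 8.68 log2 CPM with a median of 8.20 with CSC and 6.82 to 7.94 with a median of 7.18 with BaP, and the groups overlapped only at their edges. The log2 fold change of SREBF1 was 1.03 (SE 0.0498, adjusted p = 6.29e-32), with a DMSO median of 7.23. In all 8 lines every CSC sample of these 3 genes was above every BaP sample of the same line. Per line, the ABCA1 difference was smallest in PIK3CA (2.84) and CDKN2A (3.05) and largest in FAT1 (4.79), and the lines differed in it (interaction adjusted p = 0.0169 in limma-voom).

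**Figure D2:**
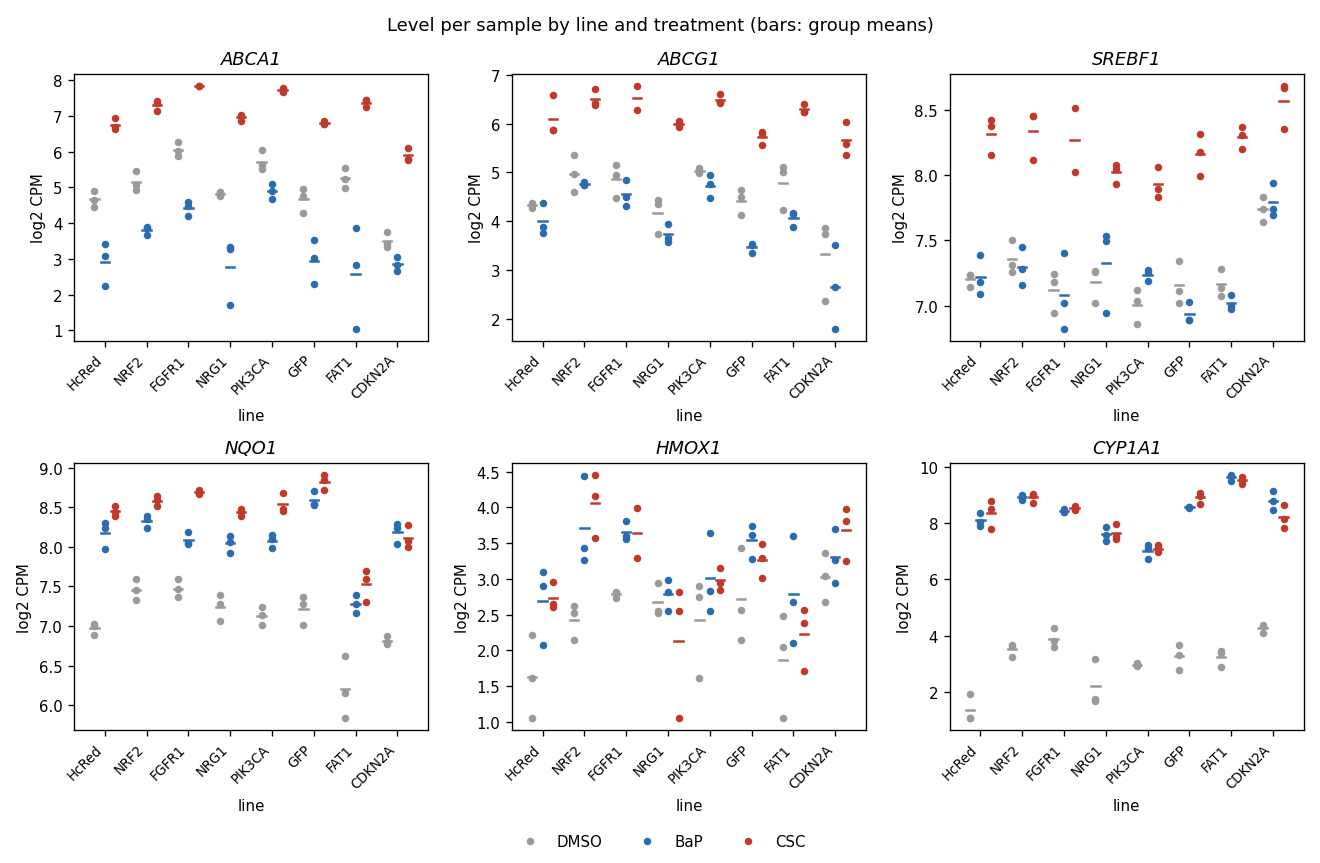
Points are single samples in log2 CPM for 6 genes, by line, coloured by treatment, with bars at group means. CSC points of ABCA1, ABCG1 and SREBF1 lie above all BaP points of the same line, those of NQO1 lie above in 6 of 8 lines, HMOX1 points are mixed, and CYP1A1 is near its BaP level in most lines while DMSO is far lower.

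A list of 14 LXR target genes was chosen after these results were known and holds the 3 genes above, so its count is a description only. Where 8.57% of all genes tested rose and 6.52% fell, 7 of its 11 tested members rose and 0 fell (median log2 fold change 0.39). Beside the 3 genes above they were FASN, the fatty acid synthase (0.70 (SE 0.0367, adjusted p = 1.31e-29)), SCD, which makes monounsaturated fatty acids (0.39 (SE 0.0279, adjusted p = 3.02e-21)), MYLIP, an LXR-induced ubiquitin ligase (0.65 (SE 0.121, adjusted p = 2.60e-05)), and LPCAT3, which remodels phospholipids (0.36 (SE 0.0609, adjusted p = 4.59e-06)). The SCD mean in HcRed was 11.33 log2 CPM with CSC, 10.98 with BaP and 11.42 with DMSO. In FAT1 it was 10.97 with CSC, 10.13 with BaP and 10.85 with DMSO. Only in FAT1 and FGFR1 (11.35 against 11.31) was the SCD mean with CSC above that with DMSO. The SCD mean with BaP was below that with DMSO in every line. ACACA, which makes malonyl-CoA for fatty acid synthesis, was higher in every CSC sample than in every BaP sample of its line in all 8 lines. Its log2 fold change was 0.37 (SE 0.0291, adjusted p = 3.89e-19). Of the receptors and cofactors, the genes of LXRβ (NR1H2, -0.0070), LXRα (NR1H3, -0.23) and RXRα (RXRA, 0.0073) did not pass the test, and 1 of the 5 tested members of that list rose.

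Genes of fatty acid synthesis and several genes of sterol synthesis moved in opposite directions. The list of cholesterol and fatty acid synthesis genes had 26 tested members, 7 higher and 10 lower with CSC, with a median of -0.09. Over all genes tested, 8.57% were higher and 6.52% lower. HMGCS1, the enzyme that makes HMG-CoA for sterols, was at 7.23 to 8.48 log2 CPM with a median of 7.86 with CSC and 7.43 to 8.91 with a median of 8.22 with BaP. The ranges overlapped, but within 7 of 8 lines every CSC sample was below every BaP sample, and the log2 fold change was -0.37 (SE 0.0427, adjusted p = 3.89e-11). CYP51A1 (-0.26 (SE 0.0386, adjusted p = 1.95e-07)), SQLE (-0.21 (SE 0.035, adjusted p = 1.71e-06)), LSS (-0.21 (SE 0.0449, adjusted p = 2.74e-04)) and FDFT1 (-0.16 (SE 0.0314, adjusted p = 5.07e-05)), which act between squalene formation and lanosterol demethylation, fell with CSC. INSIG1, a sterol sensor partner, was at 0.09 (adjusted p = 0.184).

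ANGPTL4, a secreted inhibitor of lipoprotein lipase and a PPAR target, was at 1.63 to 6.60 log2 CPM with a median of 4.26 with CSC and 1.05 to 4.76 with a median of 2.79 with BaP. The groups overlapped widely, and the log2 fold change was 1.73 (SE 0.158, adjusted p = 1.26e-15), higher in 8 of 8 lines. The list counts that follow stand against 8.57% of all genes tested that rose and 6.52% that fell. Of 10 tested PPAR and lipid droplet genes, 5 rose and 1 fell (median 0.17), among them ACSL3, which activates fatty acids (0.46 (SE 0.0341, adjusted p = 3.42e-20)), and CPT1A, which moves them into mitochondria (0.49 (SE 0.0922, adjusted p = 3.47e-05)). Of 8 tested ABC transporters of drugs and lipids, 5 rose and 0 fell (median 0.31), and apart from ABCA1 and ABCG1 these included ABCC3 (0.49 (SE 0.0667, adjusted p = 1.31e-08)) and ABCC4 (0.40 (SE 0.0766, adjusted p = 4.87e-05)), which export conjugates.

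Genes of growth factor signalling formed the second group of rises. Of 14 tested EGF ligands and ERK feedback genes, 12 rose with CSC and 0 fell, where 8.57% of all genes tested rose and 6.52% fell. The list median was 0.47 against -0.0065 for all genes. SPRY4, an inhibitor of receptor tyrosine kinase signalling, was at 2.79 to 6.23 log2 CPM with a median of 4.62 with CSC, 1.05 to 5.56 with a median of 3.63 with BaP. The treated ranges overlapped, but the difference was positive in 8 of 8 lines, with a log2 fold change of 1.05 (SE 0.115, adjusted p = 4.45e-12). DUSP6, DUSP5 and DUSP4, phosphatases that switch off MAP kinases, rose by 0.89 (adjusted p = 3.41e-13), 0.81 (1.46e-08) and 0.60 (3.77e-16). For DUSP4 every CSC sample was above every BaP sample in all 8 lines. The EGF receptor ligands AREG (0.99 (SE 0.151, adjusted p = 2.45e-07)), TGFA (0.35 (SE 0.0584, adjusted p = 2.28e-06)) and EREG (0.35 (SE 0.0622, adjusted p = 1.24e-05)) rose, as did SPRED2, an inhibitor of RAS signalling (0.52 (SE 0.0694, adjusted p = 4.75e-09)).

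Of 16 tested immediate early genes, 4 rose and 1 fell (median 0.07), where 8.57% of all genes tested rose and 6.52% fell. FOSL1 (0.60 (SE 0.0922, adjusted p = 2.98e-07)), JUNB (0.47 (SE 0.0547, adjusted p = 5.42e-11)), MYC (0.41 (SE 0.0505, adjusted p = 4.04e-10)) and the phosphatase gene DUSP1 (0.40 (SE 0.0396, adjusted p = 5.00e-14)) rose. EGR1, a transcription factor induced by serum, was at -0.02 (adjusted p = 0.831). Of 22 tested TGF-beta, matrix and YAP target genes, 10 rose and 0 fell (median 0.16), against the same 8.57% and 6.52% of all genes, among them THBS1, thrombospondin-1 (0.60 (SE 0.0584, adjusted p = 2.30e-14)). FN1, fibronectin (0.35 (SE 0.0413, adjusted p = 6.21e-11)), and CYR61, a YAP target (0.41 (SE 0.0632, adjusted p = 4.63e-07)), were also among them. The FN1 mean in HcRed was 9.30 log2 CPM with CSC, 8.99 with BaP and 9.63 with DMSO. In PIK3CA it was 10.77 with CSC, 10.14 with BaP and 10.61 with DMSO. PIK3CA was the only line where the FN1 mean with CSC was above that with DMSO. The FN1 mean with BaP was below that with DMSO in every line.

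Other rises named by size were SERPINB2, a plasminogen activator inhibitor that AhR agonists induce (1.18 (SE 0.165, adjusted p = 2.36e-08)), TMEM156 (1.08 (SE 0.15, adjusted p = 1.74e-08)) and ADAM8, a membrane metalloprotease (1.08 (SE 0.104, adjusted p = 1.80e-14)), each higher with CSC in 8 of 8 lines. The small nucleolar RNAs SNORA63 and SNORD68, which guide chemical modification of ribosomal RNA, were at medians of 6.68 and 6.01 log2 CPM with CSC and 5.45 and 4.95 with BaP, with log2 fold changes of 1.17 (SE 0.0813, adjusted p = 7.60e-22) and 1.07 (SE 0.0926, adjusted p = 1.24e-16). Of 204 tested small nucleolar RNAs, a list made after the results were known, 45 rose and 0 fell, with a median of 0.26, where 8.57% of all genes tested rose and 6.52% fell. Their share of counted reads was 0.252% to 0.387% (median 0.322%) with CSC, 0.166% to 0.478% (median 0.279%) with BaP and 0.154% to 0.259% (median 0.206%) with DMSO, and the mean was higher with CSC than BaP in 7 of 8 lines. Many of these genes lie in introns of other genes, and their reads cannot be told apart here from those of unspliced host transcripts. Whether counting used strand is not given in the sources used here.

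Interferon-stimulated genes held the largest fall among genes that averaged at least 10 reads and were lower with CSC in all 8 lines. Of 17 tested, 10 fell with CSC and 0 rose (median -0.42), where 6.52% of all genes tested fell and 8.57% rose. The means of 6 of the 17 were lower in all 8 lines, as were those of 2.29% of all genes tested. IFIT2, which binds viral RNA and inhibits translation, was at 2.21 to 5.98 log2 CPM with a median of 3.86 with CSC, 4.03 to 7.32 with a median of 4.76 with BaP and 3.56 to 6.90 with a median of 4.69 with DMSO. In 7 of 8 lines every CSC sample was below every BaP sample, although the pooled ranges overlapped. The log2 fold change was -1.27 (SE 0.115, adjusted p = 1.04e-15).

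IFIT3, its partner, was at 2.59 to 5.40 log2 CPM with a median of 3.95 with CSC and 3.68 to 6.38 with a median of 4.94 with BaP, and fell by 0.99 (adjusted p = 8.06e-13). IFIT1, whose promoter holds a pair of the motifs printed above, was at -0.97 (SE 0.167, adjusted p = 5.37e-06), with a DMSO median of 4.05 log2 CPM against 2.85 with CSC and 3.42 with BaP. IFI44 (-0.60 (SE 0.116, adjusted p = 5.13e-05)), HERC5, the ligase that attaches ISG15 to proteins (-0.54 (SE 0.109, adjusted p = 1.22e-04)), and MX1, an antiviral GTPase (-0.60 (SE 0.147, adjusted p = 0.00166)), fell too. The RNA sensors DDX58 (-0.45 (SE 0.0739, adjusted p = 1.84e-06)) and IFIH1 (-0.42 (SE 0.105, adjusted p = 0.00214)), OAS3, which makes the activator of RNase L (-0.31 (SE 0.0557, adjusted p = 1.34e-05)), and ISG15 (-0.50 (SE 0.142, adjusted p = 0.00849)) fell by less. The calls on MX1, IFIH1 and ISG15 were lost in at least 1 of 3 fits without a replicate number. For 9 of the 17 genes whose promoter was searched the test was not passed or not made, and of the 8 promoters of genes that passed, 6 held the interferon motif. For the other motifs, the promoters of called list members that held them were 0 of 12 for SREBP, 0 of 5 for NRF2, 1 of 2 for AhR, 0 of 10 for AP-1 and 1 of 5 for the LXR repeat.

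TXNIP, a glucose-responsive inhibitor of thioredoxin, was at 5.52 to 7.45 log2 CPM with a median of 6.85 with CSC and 6.77 to 8.80 with a median of 7.76 with BaP, with a DMSO median of 7.55. In all 8 lines every CSC sample was below every BaP sample, and the log2 fold change was -1.05 (SE 0.0569, adjusted p = 7.54e-29). TSPAN7, a tetraspanin membrane protein, had the same separation in all 8 lines (-1.17 (SE 0.109, adjusted p = 3.54e-15)). FBXO32, a ubiquitin ligase gene induced by FoxO factors (-0.87 (SE 0.0821, adjusted p = 5.27e-15)), BMF, a BH3-only inducer of apoptosis (-0.63 (SE 0.0811, adjusted p = 1.94e-09)), ARRDC4, a paralogue of TXNIP that shares its regulator MondoA (-0.49 (SE 0.0965, adjusted p = 6.32e-05)), and ZNF862 (-0.60 (SE 0.14, adjusted p = 9.75e-04)) fell as well. In a list of FoxO and MondoA targets made after the results were known, 5 of 13 tested members fell and 1 rose, with a median of -0.18. Of 62 tested replication-dependent histone genes, also listed afterwards, 18 fell and 4 rose (median -0.04). Beside both lists, 6.52% of all genes tested fell and 8.57% rose. HIST1H1E, a linker histone, was lower in every CSC sample than in every BaP sample of its line in 8 of 8 lines (-0.53 (SE 0.0304, adjusted p = 5.97e-27)), and HIST1H2AD fell by 0.54 (adjusted p = 7.14e-05).

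Of the markers of the antioxidant response, NQO1 passed the test and HMOX1, which had few reads, did not. NQO1 and HMOX1 were not tested against each other. NQO1 (chr16:69740899-69760571, GRCh37), which detoxifies quinones, was at 7.30 to 8.90 log2 CPM with a median of 8.48 with CSC and 7.17 to 8.71 with a median of 8.14 with BaP. The DMSO range, 5.84 to 7.59 with a median of 7.10, lay below both medians. NQO1 was higher with CSC by 0.31 (SE 0.0379, adjusted p = 2.05e-10), a 1.24-fold difference. A permutation test within lines gave p = 1e-05, the smallest that 100000 permutations can give (2-sided), for a mean difference of 0.301. The difference was positive in 7 of 8 lines, from 0.24 in GFP to 0.61 in FGFR1, and -0.07 in the CDKN2A knockout, but a difference between lines was not detected in limma-voom (interaction adjusted p = 0.0998).

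HMOX1 (chr22:35776354-35790207, GRCh37), the enzyme that degrades heme, had at most 19 reads in any of the 47 libraries, with a median of 6 with CSC and 6.5 with BaP. Its level was 1.05 to 4.45 log2 CPM with a median of 3.01 with CSC, 2.07 to 4.44 with a median of 3.26 with BaP and 1.05 to 3.44 with a median of 2.56 with DMSO, and all groups overlapped. The log2 fold change was -0.07 (95% confidence interval -0.41 to 0.27, adjusted p = 0.83), and the permutation test gave p = 0.496. A difference was not detectable at this depth.

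Over the list of 25 NRF2 target genes, 7 rose with CSC and 1 fell, with a median of 0.04, where 8.57% of all genes tested rose and 6.52% fell. The ferritin genes FTH1 and FTL, which store iron, rose by 0.44 (adjusted p = 9.70e-24) and 0.32 (1.03e-11), and SLC7A11, the cystine importer, by 0.25 (2.30e-06). Members that make glutathione did not pass: GCLC was at -0.10 (0.102) and GCLM at 0.08 (0.291), and TXNRD1, thioredoxin reductase, was at 0.08 (0.0744). SRXN1, sulfiredoxin, fell by 0.17 (adjusted p = 0.00467), a call lost without the FAT1 line or without the CDKN2A line. Of NRF2 and 9 partners, 3 fell and 0 rose, among them NFE2L1, a related factor (-0.27 (SE 0.0344, adjusted p = 7.79e-10)), and SQSTM1, an autophagy receptor that binds KEAP1 (-0.17 (SE 0.0342, adjusted p = 1.17e-04)). NFE2L2 itself was at -0.09 (adjusted p = 0.0678) and KEAP1 at -0.14 (0.125).

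The genes whose log2 CPM over the 47 samples, after removal of line means, followed NQO1 most closely were FTL (Pearson r = 0.774), FTH1 (0.751), ACACA (0.747), LAMA3 (0.735) and SNORA63 (0.732), a description in which the samples share treatment and depth. Of 15 heme and iron genes, 3 rose and 2 fell (median -0.05), where 8.57% of all genes tested rose and 6.52% fell. TFRC, the transferrin receptor that imports iron (0.48 (SE 0.0361, adjusted p = 6.43e-20)), rose with the ferritins, while ALAS1, the first enzyme of heme synthesis (-0.53 (SE 0.0685, adjusted p = 2.26e-09)), and NCOA4, which delivers ferritin to lysosomes (-0.15 (SE 0.0373, adjusted p = 0.00164)), fell. Of 5 tested metallothioneins, small proteins that bind zinc, copper and cadmium, 3 rose and 0 fell (median 0.42), against the same shares of all genes. MT2A was at 8.74 to 11.50 log2 CPM with a median of 10.42 with CSC, 8.14 to 10.83 with a median of 9.66 with BaP and 7.31 to 10.29 with a median of 9.41 with DMSO, and was separated in all 8 lines, with a log2 fold change of 0.75 (SE 0.0443, adjusted p = 3.52e-26). MT1X rose by 0.30 (2.98e-04), and MT1E was at 0.13 (0.0846). The remaining rise, MT1F with a mean of 3.53 reads (0.68 (SE 0.239, adjusted p = 0.0414)), was not called by edgeR or DESeq2, and its call was lost in 18 of 47 fits without a single library. The metallothionein genes are close copies whose reads could be split in counting.

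Of 7 tested AhR targets, 3 rose with CSC and 0 fell (median 0.05), where 8.57% of all genes tested rose and 6.52% fell, and CYP1A1 was not among those that rose. CYP1A1 (chr15:75011883-75017877, GRCh37), which oxidizes BaP itself, was at 6.97 to 9.68 log2 CPM with a median of 8.61 with CSC and 6.73 to 9.71 with a median of 8.50 with BaP, far above the DMSO range of 1.05 to 4.37 with a median of 3.27. The treated groups overlapped throughout, and the log2 fold change was 0.05 with a 95% confidence interval of -0.06 to 0.16 (adjusted p = 0.603). The difference depended on the line (interaction adjusted p = 0.0407), from -0.58 in CDKN2A to 0.35 in GFP. CYP1A2 was not tested for lack of reads, with 18 reads in all CSC and 20 in all BaP libraries and 0 in DMSO.

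The targets that rose were CYP1B1, TIPARP and SERPINB2. CYP1B1 was at a median of 9.69 log2 CPM with CSC, 9.45 with BaP and 6.15 with DMSO, and rose by 0.14 (adjusted p = 9.87e-04), a call lost without replicate number 3. TIPARP, a feedback inhibitor of AhR, rose by 0.14 (0.00265), a call lost without the CDKN2A line or without replicate number 3, and SERPINB2, at 1.18, was given above. AHRR, the AhR repressor, was at -0.26 with an interval of -0.49 to -0.03 (0.118), ALDH3A1 at -0.22 (0.12) and UGT1A6 at -0.08 (0.795). With the GC content and length trend removed, AHRR (-0.29) and ALDH3A1 (-0.26) passed the test as lower with CSC. The receptor gene AHR was at -0.01 (0.871) and its partner ARNT at -0.03 (0.816), and 1 of 6 genes of the receptor complex list rose. Of 25 tested phase II and carbonyl enzymes, 3 rose and 0 fell (median -0.01). Beside both lists, 8.57% of all genes tested rose and 6.52% fell.

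**Figure D3:**
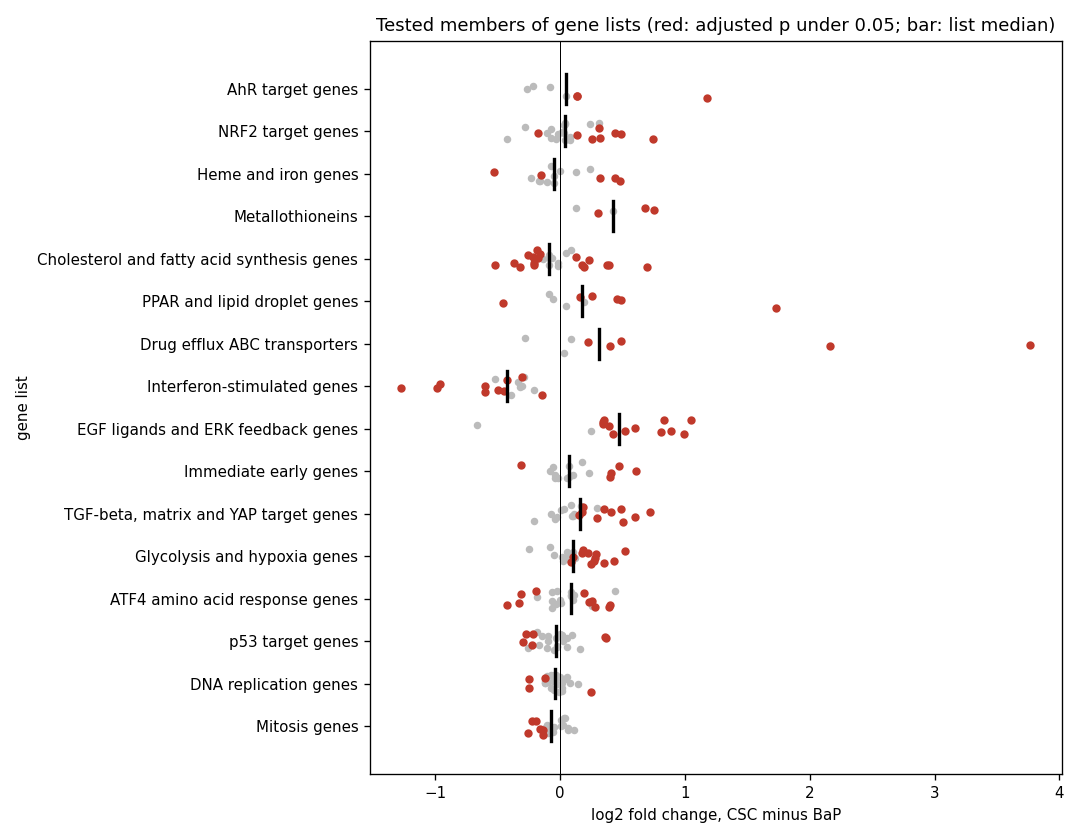
Each row is a gene list, and each point a tested member at its log2 fold change, CSC minus BaP, red where the adjusted p is under 0.05. Black bars are list medians. The interferon-stimulated members lie to the left of 0, the EGF ligand and ERK feedback members mostly to the right, and the AhR members other than SERPINB2 and the p53 and DNA replication members around 0.

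The counts of metabolic, adhesion and cytokine genes given next stand against 8.57% of all genes tested that rose and 6.52% that fell. Of 23 tested glycolysis and hypoxia genes, 12 rose and 0 fell (median 0.11), including VEGFA, the vascular growth factor (0.52 (SE 0.0553, adjusted p = 9.94e-13)), the lactate exporter gene SLC16A3 (0.43 (SE 0.0447, adjusted p = 3.49e-13)), LDHA (0.27 (SE 0.0301, adjusted p = 1.03e-11)) and GAPDH (0.19 (SE 0.0239, adjusted p = 1.38e-09)). Of 25 ATF4 amino acid response genes, 6 rose and 4 fell (median 0.09), and SLC7A5, the leucine importer, rose by 0.40 (adjusted p = 1.32e-21). Of 16 basal keratin and adhesion genes, 6 rose and 2 fell (median 0.06). The laminin chain gene LAMA3 (0.42 (SE 0.0319, adjusted p = 5.75e-20)) rose with KRT6A, a keratin of wounded epithelium (0.27 (SE 0.0265, adjusted p = 3.33e-14)), while KRT5 (-0.15 (SE 0.0231, adjusted p = 5.04e-07)) and KRT15 (-0.66 (SE 0.124, adjusted p = 3.56e-05)) fell. FAT1, the cadherin gene knocked out in 1 line, was higher with CSC than with BaP in every line (0.46 (SE 0.0297, adjusted p = 5.98e-24)). Its median reads per library, not scaled for depth, were 545 with CSC, 473 with BaP and 705.5 with DMSO. Of 12 tested cytokine genes, 5 rose and 0 fell (median 0.31).

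In the lists of p53 targets, DNA adduct repair, DNA replication and mitosis more genes fell than rose, where 8.57% of all genes tested rose and 6.52% fell, and the log2 fold changes of their tested members were between -0.34 and 0.365. Of 26 p53 targets, 2 rose and 4 fell (median -0.03), with CDKN1A at 0.02 (adjusted p = 0.744) and MDM2 at -0.10 (0.0953). XPC, a sensor of bulky DNA adducts (-0.30 (SE 0.0629, adjusted p = 2.26e-04)), and XPA, which verifies them (-0.34 (SE 0.0867, adjusted p = 0.00305)), were among 3 of 20 adduct repair and translesion genes that fell, and 1 rose. Of 20 mitosis genes, the list with the highest count of falls among these 4, 6 fell and 0 rose (median -0.07), among them CENPF (-0.22 (SE 0.0327, adjusted p = 9.10e-08)), CDK1 (-0.26 (SE 0.0469, adjusted p = 1.33e-05)) and TOP2A (-0.14 (SE 0.0287, adjusted p = 2.44e-04)). DNA replication genes had 1 of 26 higher and 3 lower. Counts of higher and lower genes were 6 and 2 of 24 for glutathione and thioredoxin genes, 0 and 2 of 15 for heat shock chaperones, 2 and 2 of 18 for the unfolded protein response, 2 and 2 of 31 for proteasome subunits, 1 and 2 of 11 for lysosome genes, 2 and 0 of 12 for cornified envelope genes and 1 and 0 of 8 for airway secretory genes.

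Markers of other cell types were low. Summed fibroblast markers were at 12.5 to 71.4 CPM, leukocyte markers at 4.16 to 42.0 CPM, endothelial markers at 0 to 6.26 CPM and ciliated and club cell markers at 0 to 8.10 CPM over the 47 libraries. Of the tested members, 0 of 2 fibroblast, 0 of 1 endothelial and 0 of 1 ciliated or club cell markers passed the test. CD68, a lysosomal protein of macrophages that epithelial cells also express, rose (0.73 (SE 0.132, adjusted p = 1.33e-05)), while PTPRC, which marks all leukocytes, had 2 reads in all 47 libraries. Among 6 basal epithelial markers, 2 rose and 1 fell, where 8.57% of all genes tested rose and 6.52% fell.

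The difference between CSC and BaP depended on the line in few genes. In a limma-voom F test of the 7 line-by-treatment terms, 91 genes (0.634%) passed, of which 53 were also among the 2165. The count was 46 with the GC content and length trend removed, 39 without the CDKN2A line and 233 without 1 BaP library of the NRG1 line (replicate 1). SCD had the smallest p (adjusted p = 6.69e-18): its difference was 0.84 in FAT1, 0.63 in NRF2, 0.53 in FGFR1, 0.40 in GFP, 0.35 in HcRed, 0.24 in NRG1, 0.12 in PIK3CA and 0.12 in CDKN2A. CSC was higher in all lines, least in PIK3CA and CDKN2A.

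FN1, fibronectin, differed by 0.85 in NRF2 and 0.63 in PIK3CA but by 0.09 in CDKN2A and -0.03 in NRG1 (adjusted p = 1.08e-07). The cytoskeletal linker PLEC (1.08e-07), the integrin gene ITGA3 (5.40e-07) and the cadherin gene FAT2 (8.82e-07) had differences in HcRed of 0.38, 0.50 and 0.37, and in GFP, the control of the knockouts, of 0.36, 0.46 and 0.29. In CDKN2A their differences were -0.10, -0.13 and -0.30, and in NRG1 -0.02, 0.04 and 0.03. All 3 were therefore positive in both controls, negative in the CDKN2A knockout and near 0 in NRG1. FTL differed by 0.71 in PIK3CA and 0.02 in FAT1 (adjusted p = 2.65e-06).

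**Figure D4:**
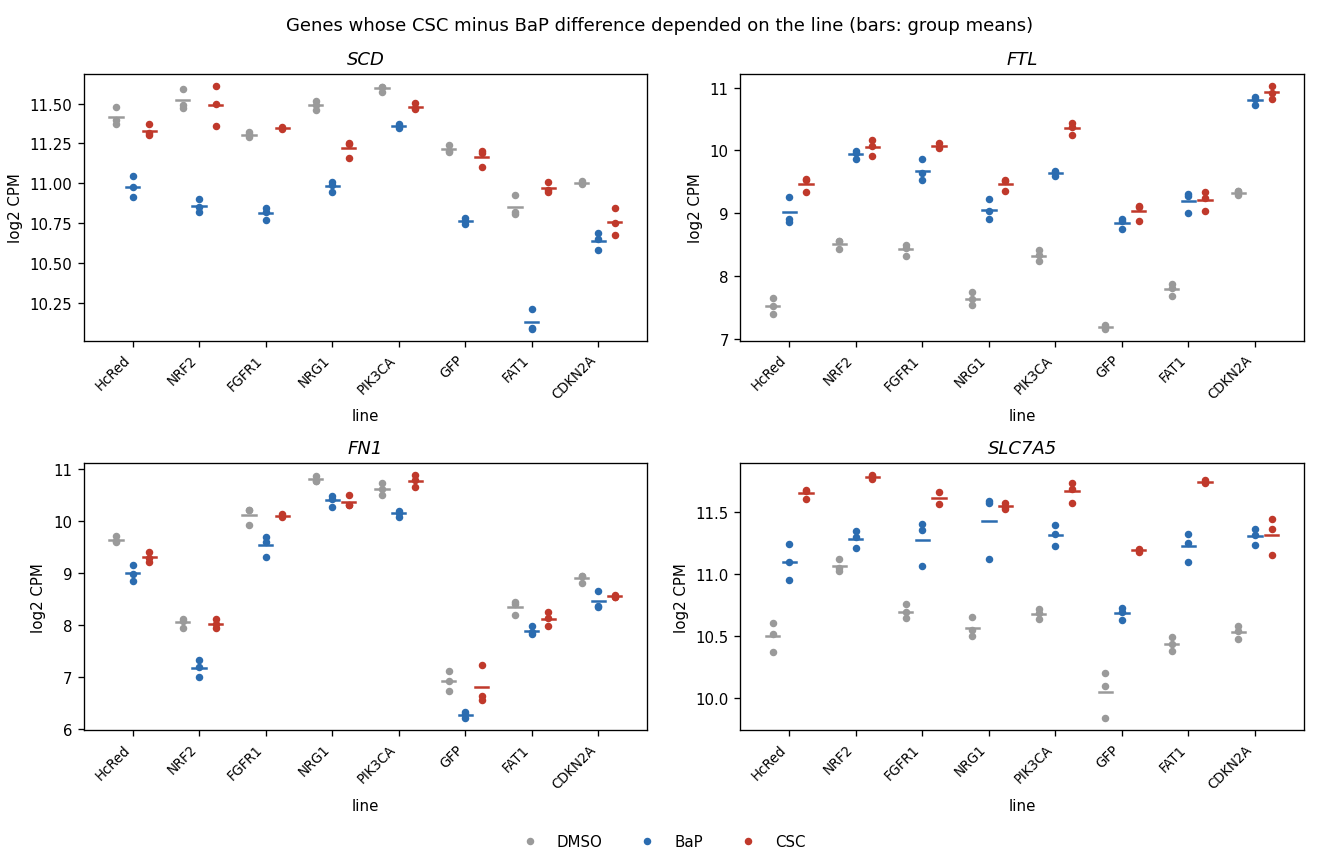
Points are single samples in log2 CPM for 4 genes by line, coloured by treatment, with bars at group means. CSC and BaP points of SCD are widely apart in FAT1 and close in PIK3CA and CDKN2A. Those of FN1 and SLC7A5 overlap in NRG1 and CDKN2A, and those of FTL overlap in FAT1.

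The difference in the NRF2 line minus that in its HcRed control passed in 5 genes (0.0349% of 14345). HSD17B12, a fatty acid elongation enzyme, differed by 0.53 in NRF2 and -0.38 in HcRed (term 1.01, SE 0.178, adjusted p = 0.00265 in limma-voom). The others were SCD (term 0.27, 0.00713), the ubiquitin-conjugating enzyme gene UBE2K (0.72, 0.0474), the small nucleolar RNA SNORA16A (1.42, 0.0474) and EGLN3, an oxygen sensor with a mean of 2.81 reads (-5.10, 0.042). The count was unstable: it was 0 without BaP replicate 1 of NRF2 and 22 without BaP replicate 3 of HcRed. None of the NRF2 target list was among the 5, and the term was -0.03 (SE 0.122, 0.962) for NQO1.

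The overexpressed gene NRG1 was at -0.04 (adjusted p = 0.745) over all lines and, without the NRG1 line, at 0.88 and past the test, with 58 to 122 reads in the NRF2 line with CSC against 13 to 21 with BaP. What sets the NRG1 pattern was not tested. Among the other perturbed genes, FGFR1 was at 0.13 (adjusted p = 0.066), PIK3CA at -0.04 (0.636) and CDKN2A at 0.11 (0.158), none past the test in limma-voom.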

How the data were processed

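Per the labels, the authors trimmed single-end reads with cutadapt 1.12, aligned them to hg19 with STAR 2.5.2b and counted them in RefSeq genes with featureCounts, and deposited 1 table of raw counts per sample, without normalization. The columns of all 47 samples named one treatment and line each, taken from the labels.

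Counts of genes with a mean above 1 over the 47 samples were normalized with TMM (edgeR 4.0.16, R 4.3.3) and fitted with limma-voom (limma 3.58.1), with the line as covariate, 2-sided, with p-values adjusted by Benjamini-Hochberg and called below 0.05. An interaction model tested 7 line-by-treatment terms. Levels are log2 CPM with a prior count of 2. NQO1 and HMOX1 were also tested by 100000 permutations within lines. edgeR's quasi-likelihood test and DESeq2 1.42.0 (its automatic filters switched off) were alternatives. Scripts were tested on simulated data. Gene positions, GC content and exon length are from GENCODE models on GRCh37 (92.9% of genes tested), and a loess trend (span 0.3) on both was removed per sample in an alternative.

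Genes were named as NQO1 and HMOX1, the 10 largest rises and 10 largest falls among genes averaging at least 10 reads with the same sign in 8 lines, the leading members of each gene list, all AhR targets, the leading interaction genes, the perturbed genes and KEAP1, and the 5 genes most correlated with NQO1. Some genes these rules name are not reported here. The members and lists were chosen with earlier results of these data known. Reads of close gene copies (metallothioneins, keratins, histones, aldo-keto reductases) could be split in counting.

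Same-numbered CSC and BaP samples of a line did not deviate together: the correlation of their deviations was -0.133 to 0.0931 over 23 pairs (median 0.0216). Replicates differed by more than sampling noise in all pairs (chi-square per degree of freedom 1.12 to 2.87). NNK samples were not used, except in a fit of all 95 samples.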

Additional observations from a re-analysis of the deposited data

Results flagged for a closer look

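Each of the following genes had a CSC minus BaP difference that depended on the line, by the limma-voom F test of 7 terms over 8 lines, or on NRF2 against HcRed. They are given as values, and what sets the differences between lines was not tested.

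In lipid genes, the adjusted p was 0.0169 for ABCA1 and 6.69e-18 for SCD, with CSC higher in all 8 lines for both. In xenobiotic and redox genes it was 0.0407 for CYP1A1, 2.65e-06 for FTL, 0.00113 for FTH1, 0.0353 for TXNRD1 and 0.00276 for SRXN1. SRXN1 differed by -0.66 in FAT1 and by 0.25 in PIK3CA.

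In signalling and matrix genes it was 0.0224 for JUNB, 8.99e-06 for EGR1, 5.58e-05 for THBS1, 1.08e-07 for FN1, 0.00156 for CYR61 and 0.0478 for TGFBI. EGR1, not called over all lines, differed by 0.47 in NRF2 and -0.49 in CDKN2A. In transport and hypoxia genes it was 1.11e-05 for SLC7A5, 0.0218 for SLC3A2, 0.0254 for SLC16A3 and 0.00487 for NDRG1.

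In adhesion and cytoskeleton genes it was 0.0159 for LAMA3, 0.00038 for KRT6A, 1.08e-07 for PLEC, 5.41e-07 for ITGA3 and 8.82e-07 for FAT2. For NRG1 it was 5.19e-06 and for HSD17B12 0.00132. For NRF2 against HcRed it was 0.00713 for SCD, 0.00266 for HSD17B12, 0.0474 for UBE2K, 0.0474 for SNORA16A and 0.042 for EGLN3.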

How the results depend on the processing

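The number of genes that differed between CSC and BaP, 2165, was 2136 with edgeR, 1955 with DESeq2, 2215 with DESeq2 size factors, 2264 with plain CPM, 1832 with all genes of at least 1 read, 2236 for genes averaging at least 10 reads, 2223 in the fit of 95 samples, 2342 with the GC content and length trend removed, 2291 with library size as a covariate, and 1954 to 2218 without single libraries. Without single replicate numbers it was 1182 to 1569, with fewer samples. The number does not pair the samples. With the replicate block it was 2008 as a term and 1923 as pairs within lines, and no call on NQO1 or HMOX1 changed. The counts by direction were 1230 and 935, against 1071 and 1193 (plain CPM), 1139 and 1203 (trend removed) and 1102 and 1146 (trend removed with replicate block). The log2 fold change of NQO1 stayed between 0.28 and 0.36 and past the threshold in all fits run. That of HMOX1 was -0.17 to 0.0497 without single replicate numbers, reversed at 0.0497 without replicate 3, and past the threshold in none.

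The count of genes whose difference depended on the line, 91, was 46 with the trend removed, 48 with it and the replicate block, 269 with log10 library size as covariate, 39 without the CDKN2A line, 28 to 82 without single replicate numbers and 64 to 233 without single libraries. The count of 5 for NRF2 against HcRed was 9 with edgeR, 8 with DESeq2 size factors, 8 in the fit of 95 samples, 8 with trend removal and replicate block, 27 with library size as covariate, 18 without libraries under 500000 reads, 9 without the FGFR1 or the NRG1 line, 0 to 12 without single replicate numbers and 0 to 22 without single libraries. The cause was not tested. DESeq2 was not run on the interaction terms.

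Of 2003 values of 145 other genes under 14 alternatives, 1950 kept direction and side of the threshold, 23 lost and 16 gained the call and 14 reversed, all 14 of genes without a call. Reversed were NRG1 (0.29 with edgeR, 0.62 with DESeq2, 0.0232 for genes averaging at least 10 reads, 0.0433 with library size), EGR1 (0.000747 with DESeq2), HSD17B12 (-0.0137 with plain CPM, -0.0128 with at least 1 read, -0.00454 with 95 samples, -0.00159 with library size, -0.00631 without libraries under 500000 reads), CDKN1A (-0.00289 with the trend removed, -0.00362 with it and the block) and PIK3CA (0.0108 with the trend removed, 0.00557 with it and the block). With the trend removed, AHRR, ALDH3A1, GCLM, KEAP1, NFE2L2 and UBE2K passed the threshold. Leaving out single libraries cost calls of genes counted in the lists (among them MT1F in 18 of 47 fits, TALDO1 and HILPDA in 11, CCNE1 in 6, SPRY2 in 3, DHCR7 in 1), but of the genes described singly only that of MT1F, while GCLC, MDM2, NFE2L2, TXNRD1, ALDH3A1, FGFR1 and MT1E passed without some of them. Leaving out a replicate number cost the calls on CYP1B1, TIPARP, SRXN1, SQSTM1, NCOA4, ISG15, MX1, IFIH1, MT1F, TOP2A, XPA and XPC in at least 1 of 3 fits. Alternatives added after seeing the data were the genes of known GC content without trend removal (2143), the fits without libraries under 500000 reads and library size as covariate for the interaction. Low depth limits genes of few reads such as HMOX1.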
